A study of Mus musculus with 16 samples.

Results

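Glucocorticoid-responsive regulators are a set of 10 genes: the glucocorticoid receptor Nr3c1 and 9 genes known to respond to glucocorticoids in muscle or other tissues, Fkbp5, Tsc22d3, Zbtb16, Klf15, Klf9, Cebpd, Cebpb, Errfi1 and Sgk1. They were chosen by name, with earlier results of these data known, so the shares of all genes given beside counts test no enrichment. Their 11 probes were found through the RefSeq accession of each probe, among 55681 probes that stood for 36717 genes or unnamed transcripts. Each gene had 1 probe except Nr3c1, which had 2. All 10 were among the 21280 genes tested, and all 176 of their spot values were well above background, so none entered through a single group.

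RNA was measured on Agilent 1-colour arrays in the quadriceps of male mice aged 8 weeks, with 1 array per mouse and 4 mice in each of 4 groups. The groups were fasted mFoxO-TKO, fed mFoxO-TKO, fasted WT and fed WT. The mFoxO-TKO mice (mFoxO1,3,4-/-) carried a deletion of FoxO1, FoxO3 and FoxO4 by a Cre recombinase under the human α-actin (HSA) promoter, which acts in skeletal muscle fibres, so that other cells of the tissue kept these genes. Fasted mice spent 24 h without food in individual cages, and fed mice ate ad libitum. Replicates 1 and 2 of every group lay on slide 1, replicates 3 and 4 on slide 2, and the arrays of a group shared a column of the slide, so that array position and group cannot be told apart.

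Glucocorticoids are steroid hormones that the adrenal gland releases in fasting and stress. They bind a receptor that chaperones hold in the cytoplasm, and the receptor then enters the nucleus and binds DNA at short palindromes, where it raises or lowers transcription. In muscle, glucocorticoids are known for turning on protein breakdown and amino acid use. FoxO factors are transcription factors that insulin signalling keeps out of the nucleus, and in fasting muscle they act on part of the same genes.

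Short factor motifs were looked for upstream of these genes' transcription starts. RefSeq's table of promoters (GRCm38.p6, 250 bases before to 50 after each start) held 15 promoters of 7 of the 10 genes, and none was matched for Cebpd, Nr3c1 or Zbtb16. 5 motifs were searched on both strands: the glucocorticoid receptor palindrome (GNACA, then NNN, then TGTNC), its single site TGTTCT, the FoxO motif TGTTTAC, the C/EBP motif TTGCNNAA and the cAMP response element TGACGTCA. Of all 32851 promoters in the table, 0.475% held the palindrome, 19.0% the single site, 3.65% the FoxO motif, 10.8% the C/EBP motif and 1.79% the cAMP response element. The palindrome occurred in 1 of the 6 Sgk1 promoters, and the single sites on either side of it overlap it. The single site occurred in 3 Sgk1 promoters and 1 of 3 Tsc22d3 promoters, the FoxO motif in the Klf9 promoter, the C/EBP motif in 1 Sgk1 promoter and the cAMP response element in 1 of 2 Errfi1 promoters. The promoters of Fkbp5, Klf15 and Cebpb held none of the 5, which says only that these letters are not in this window. The 250 bases before the start are shown for 4 genes on which the results below turn: Fkbp5 and Klf15, which both rose with fasting and of which Klf15 passed between the fasted genotypes, Klf9 for its FoxO motif, and Sgk1, which held the palindrome and passed no test. Capitals mark motif matches, and each line reads 5′ to 3′ along the gene.
Fkbp5 (chr17:28486150-28486399, minus strand): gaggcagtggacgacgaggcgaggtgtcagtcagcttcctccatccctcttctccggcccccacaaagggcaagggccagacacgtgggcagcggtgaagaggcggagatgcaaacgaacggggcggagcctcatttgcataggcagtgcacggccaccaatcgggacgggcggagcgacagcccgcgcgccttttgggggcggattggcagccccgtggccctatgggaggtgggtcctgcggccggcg
Klf15 (chr6:90462326-90462575, plus strand): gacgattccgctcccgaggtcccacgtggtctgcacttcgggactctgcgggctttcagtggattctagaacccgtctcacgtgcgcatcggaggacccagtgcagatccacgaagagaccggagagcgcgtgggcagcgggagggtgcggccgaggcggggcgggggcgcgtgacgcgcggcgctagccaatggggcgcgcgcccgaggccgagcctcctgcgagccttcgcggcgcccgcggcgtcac
Klf9 (chr19:23140976-23141225, plus strand): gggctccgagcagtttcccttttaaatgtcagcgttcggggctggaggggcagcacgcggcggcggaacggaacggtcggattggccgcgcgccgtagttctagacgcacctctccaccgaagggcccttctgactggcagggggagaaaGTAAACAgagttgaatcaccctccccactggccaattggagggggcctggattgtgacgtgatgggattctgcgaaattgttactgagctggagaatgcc
Sgk1, promoter 5 (chr10:21993640-21993889, plus strand): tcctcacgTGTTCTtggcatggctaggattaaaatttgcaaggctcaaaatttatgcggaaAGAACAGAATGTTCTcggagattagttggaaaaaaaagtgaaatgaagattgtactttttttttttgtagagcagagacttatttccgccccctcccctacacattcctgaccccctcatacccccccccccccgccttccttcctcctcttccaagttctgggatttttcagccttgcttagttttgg
In the Klf9 line the capitals are the FoxO motif read on the opposite strand, starting 100 bases before the start. In the Sgk1 line they are a single site and, further on, the palindrome with its overlapping single sites. Which promoter gave the RNA that a probe measured was not tested.

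A signal below is a multiple of the 75th percentile of its array. Changes are log2 differences between group means, each ± its standard error, taken from 1 limma model over the 16 arrays, with n = 4 per group unless fewer values are given. The threshold for passing was an adjusted p of 0.05 (Benjamini-Hochberg over 21280 genes). Signals of different probes are not comparable with each other, so levels are compared between groups for 1 gene at a time. Signals are listed in the order of replicate numbers.

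Over 24 h of fasting, 8 of the 10 genes rose in WT muscle: Cebpd, Klf15, Cebpb, Zbtb16, Fkbp5, Errfi1, Klf9 and Tsc22d3. Of all genes tested, 11.2% rose in that comparison. In mFoxO-TKO muscle 4 rose, Fkbp5, Cebpd, Zbtb16 and Klf15, where 4.29% of all genes did. Leaving out single arrays lost the mFoxO-TKO call of Klf15 in 13 cases and of Zbtb16 in 7, and those of Fkbp5 and Cebpd in none. Fasted mFoxO-TKO muscle had less Klf15, Cebpd and Tsc22d3 RNA than fasted WT muscle, 3 genes of 10 against 5.0% of all genes that were lower. In fed muscle no gene of the set passed between genotypes (limma, where 1.02% of all genes passed). Only Tsc22d3 had an unadjusted p under 0.05 there, and the share of all genes under that level was not counted. Nr3c1 and Sgk1 passed in no comparison.

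**Figure D1:**
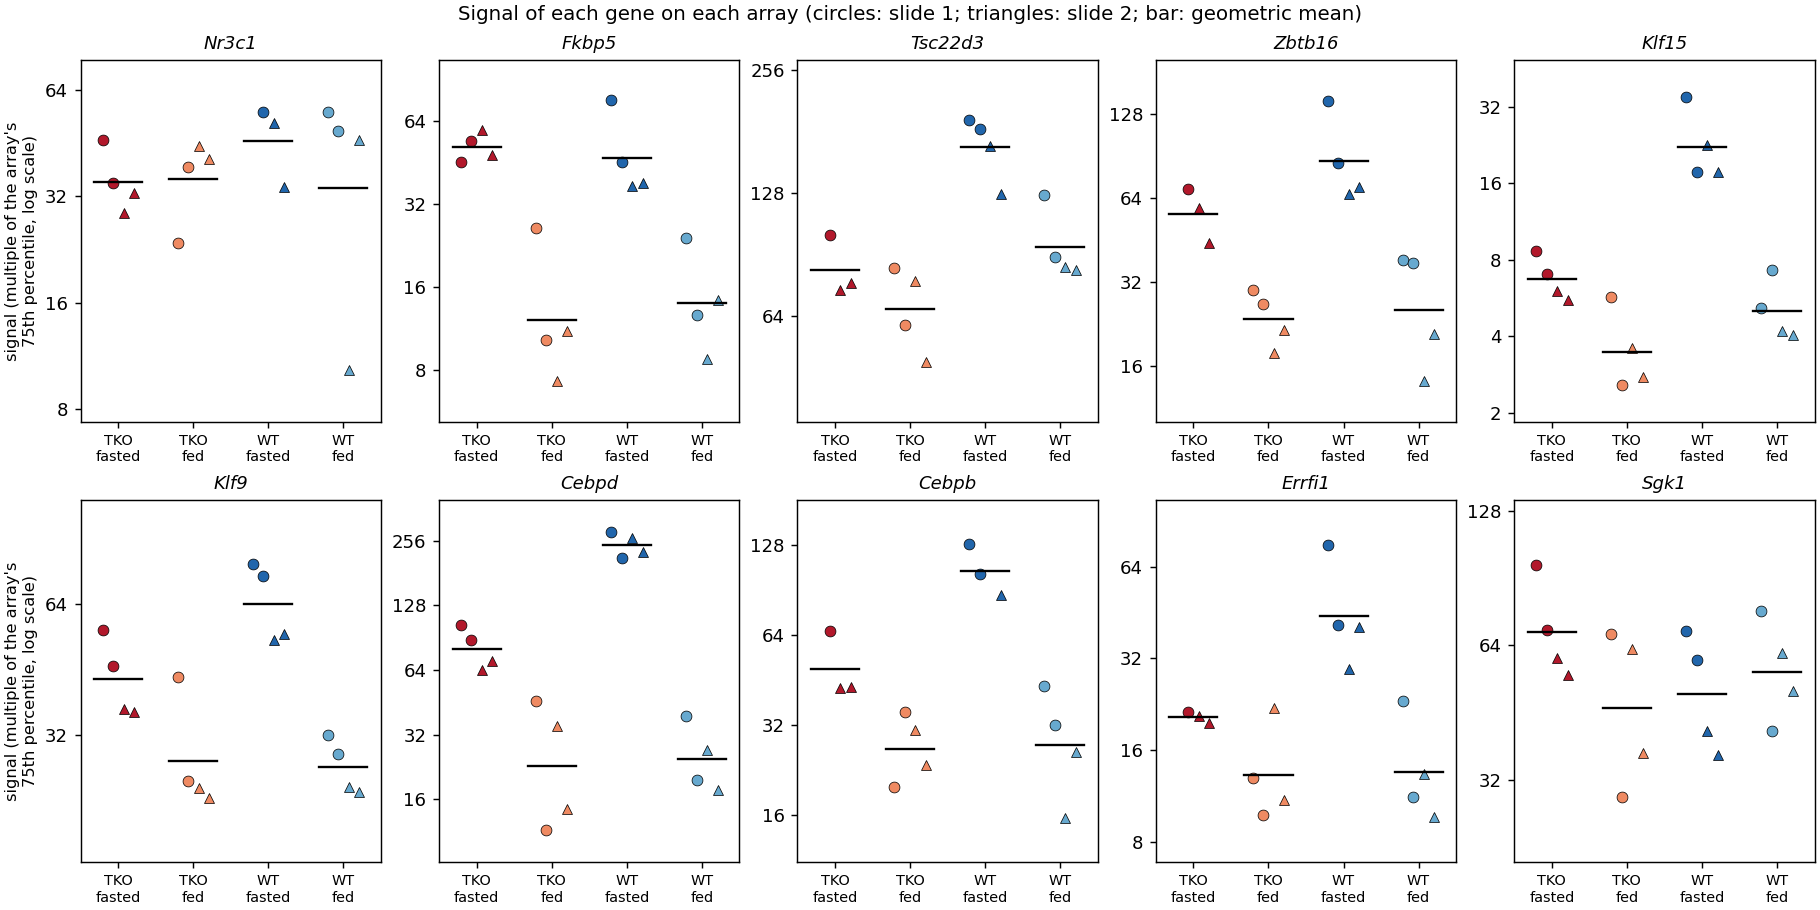
Signal of each of the 10 genes on each array as a multiple of the 75th percentile of that array (vertical axes, log scale), with mFoxO-TKO fasted, mFoxO-TKO fed, WT fasted and WT fed from left to right. Circles are arrays of slide 1, triangles arrays of slide 2, and bars geometric means. Cebpd lies between 214 and 282 on the fasted WT arrays, above all arrays of the other 3 groups.

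The arrays themselves were first checked against their labels. Foxo1 was lower in mFoxO-TKO than in WT muscle, with a log2 difference of -3.40 ± 0.23 when fasted (adjusted p = 3.40e-07) and -1.76 ± 0.23 when fed (adjusted p = 0.00118). Foxo4 was well above background on 0 of 8 mFoxO-TKO arrays and on 8 of 8 WT arrays, and Foxo3 did not pass, at -0.75 ± 0.27 fasted (adjusted p = 0.0976) and 0.74 ± 0.27 fed (adjusted p = 0.299). Whether the probes lie in the deleted parts was not tested. All 8 muscle fibre markers were well above background on every array, with summed signals of 2737 to 4982 in fasted and 2561 to 4117 in fed mFoxO-TKO muscle, and 2889.5 to 4375 in fasted and 3083 to 3733 in fed WT muscle. Of 6 fibroblast markers, 2 fell with fasting in mFoxO-TKO muscle and 4 in WT muscle, and their summed signal ran from 262 to 392 in fasted and 399.7 to 461 in fed mFoxO-TKO muscle, and from 287 to 431 in fasted and 340.4 to 512 in fed WT muscle. Of 5 macrophage markers, 1 fell with fasting in each genotype, with summed signals of 11.5 to 26.4 in fasted and 20.1 to 41.0 in fed mFoxO-TKO muscle, and 12.6 to 15.8 in fasted and 13.9 to 24.1 in fed WT muscle, and 1 of the 5, Mrc1, was higher in fasted mFoxO-TKO than in fasted WT muscle (0.86 ± 0.26, adjusted p = 0.0455). Of all 21280 genes tested, 1811 passed with fasting in mFoxO-TKO, 913 of them higher, and 4428 in WT, 2392 of them higher. Between fasted genotypes 939 genes were higher in mFoxO-TKO. Of 3 satellite cell markers, Myf5 was well above background on no array, Chrdl2 on every array, and Pax7 on 3 of 4 fasted WT arrays and all others. Of the 2 that were tested, 1 rose with fasting in mFoxO-TKO muscle and 1 fell in WT muscle. Among 4 fat cell markers tested, 1 rose with fasting in each genotype. In WT muscle 1 of 5 endothelial and 1 of 2 T cell markers fell with fasting, and none passed in mFoxO-TKO muscle. No Schwann cell, red blood cell or neutrophil marker passed in any comparison. The part of these cell types in the results below was not tested, and in bulk tissue fewer cells of a type and less RNA per cell cannot be told apart.

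Nr3c1 encodes the receptor itself. Its brighter probe gave 46.2, 34.9, 28.7 and 32.7 in fasted mFoxO-TKO muscle, against 23.5, 38.6, 44.3 and 40.6 in fed mFoxO-TKO muscle. In WT muscle it gave 55.2, 51.4 and 33.9 on 3 fasted arrays, against 55.4, 48.9, 10.3 and 46.1 on the fed arrays. The groups overlapped in both genotypes, and 1 fed WT array, replicate 3, was far below the rest. The change with fasting was -0.03 ± 0.43 in mFoxO-TKO (adjusted p = 0.982) and 0.44 ± 0.46 in WT (adjusted p = 0.581). Without that array the WT value was -0.13, so its sign rested on 1 array. The bright spots around that Nr3c1 spot were also lower there than on the other fed WT arrays, with a median deviation of -1.03 on the log2 scale over 39 spots. The dimmer probe ran from 0.934 to 1.21 in fasted and 1.13 to 1.36 in fed mFoxO-TKO muscle, and from 1.02 to 1.50 in fasted and 0.926 to 1.56 in fed WT muscle. It too overlapped in every comparison. The receptor's RNA passed no test by either probe, with a 95% interval of -0.55 to 1.43 for WT fasting by the brighter one.

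Fkbp5 encodes a co-chaperone that binds the receptor complex and lowers its affinity for hormone, and it is among the genes the receptor itself induces. Fasted mFoxO-TKO arrays gave 45.5, 54.1, 59.4 and 48.2, against 26.1, 10.3, 7.24 and 11.01 on fed mFoxO-TKO arrays. Fasted WT arrays gave 76.1, 45.6, 37.2 and 38.3, against 24.1, 12.6, 8.75 and 14.3 on fed WT arrays. In both genotypes every fasted array was above every fed one, whereas the fasted groups of both genotypes overlapped. Fasting raised Fkbp5 by 2.09 ± 0.36 in mFoxO-TKO (adjusted p = 0.00236, 4.26-fold) and by 1.76 ± 0.36 in WT (adjusted p = 0.0026, 3.38-fold). The difference between the genotypes in this response, the interaction, was 0.33 ± 0.51 (adjusted p = 0.909), with a 95% interval of -0.75 to 1.42 that includes responses both weaker and stronger in mFoxO-TKO. Fasted mFoxO-TKO and fasted WT muscle differed by 0.13 ± 0.36 (adjusted p = 0.888). The lowest fasted mFoxO-TKO value, on replicate 1, lay among 35 bright spots that were lower than on the group's other arrays, with a median deviation of -0.93. Without any 1 array, the fasted genotype difference ran from 0.01 to 0.36 and the interaction from 0.07 to 0.70. Within slide 1 and slide 2 the rise was 1.60 and 2.58 in mFoxO-TKO and 1.76 and 1.76 in WT.

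Tsc22d3, also known as GILZ, encodes a leucine zipper protein through which glucocorticoids dampen inflammation. Its signal was 101, 74.0 and 77.1 on 3 fasted mFoxO-TKO arrays, against 84.0, 61.0, 77.9 and 49.6 on the fed ones. WT muscle gave 193, 183, 167 and 126.98 when fasted, against 126.89, 89.4, 84.6 and 82.9 when fed. The feeding groups overlapped in mFoxO-TKO and did not overlap in WT, where the lowest fasted and the highest fed array nearly met. The change with fasting was 0.32 ± 0.22 in mFoxO-TKO (adjusted p = 0.451) and 0.81 ± 0.20 in WT (adjusted p = 0.0113). Tsc22d3 was 1.99-fold lower in fasted mFoxO-TKO than in fasted WT muscle (-0.99 ± 0.22, adjusted p = 0.00999), with all fasted mFoxO-TKO arrays below all fasted WT arrays. Within slides that difference was -0.90 on slide 1 and -0.95 on slide 2. In fed muscle the same difference was -0.50 ± 0.20 (adjusted p = 0.399). The interaction was -0.49 ± 0.30 (adjusted p = 0.667).

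Zbtb16, also known as PLZF, encodes a zinc finger transcription factor. It gave 68.5, 58.6 and 44.1 on 3 fasted mFoxO-TKO arrays, against 29.8, 26.6, 17.8 and 21.6 on the fed ones. In WT muscle the fasted arrays gave 142, 85.4, 65.8 and 69.9, against 38.3, 37.3, 14.1 and 20.9 on the fed arrays. Fasted and fed arrays did not overlap in either genotype. Zbtb16 rose by 1.26 ± 0.35 in mFoxO-TKO (adjusted p = 0.0388) and by 1.76 ± 0.32 in WT (adjusted p = 0.00139). The mFoxO-TKO call depended on a single spot: fasted replicate 1 was marked as uneven by the scanner software and left out. With uneven spots kept, that array gave 10.8, below every fed mFoxO-TKO array, and the change was 0.68 (adjusted p = 0.442). Around the spot, the 39 nearby bright spots were lower than on the other arrays of the group, with a median deviation of -2.21. The call was also lost without any 1 of 7 arrays, and it kept its direction within slide 1 (1.28) and slide 2 (1.37). Between fasted mFoxO-TKO and fasted WT muscle Zbtb16 did not pass, at -0.62 ± 0.35 (adjusted p = 0.339), nor with uneven spots kept, at -1.16 (adjusted p = 0.154).

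Klf15, a Krüppel-like factor, turns on enzymes of amino acid breakdown in muscle. Fasted mFoxO-TKO arrays gave 8.68, 7.03, 6.02 and 5.53, against 5.70, 2.58, 3.59 and 2.76 on fed mFoxO-TKO arrays. Fasted WT arrays gave 34.9, 17.8, 22.6 and 17.7, against 5.17, 7.30, 4.18 and 4.05 on fed WT arrays. The feeding groups were apart in WT, while in mFoxO-TKO the lowest fasted array lay below the highest fed one. The rise was 0.95 ± 0.28 in mFoxO-TKO (adjusted p = 0.0475, 1.93-fold) and 2.15 ± 0.28 in WT (adjusted p = 7.15e-05, 4.44-fold). The mFoxO-TKO call lay close to the threshold and was lost without any 1 of 13 arrays, at adjusted p-values of up to 0.152. Every fasted mFoxO-TKO array was below every fasted WT array, and Klf15 was 3.32-fold lower there (-1.73 ± 0.28, adjusted p = 0.000877), the largest genotype difference of the set. Within slides that difference was -1.67 on slide 1 and -1.79 on slide 2. In fed muscle it was -0.53 ± 0.28 (adjusted p = 0.626). The interaction was -1.20 ± 0.40 with an unadjusted p of 0.00851 and an adjusted p of 0.211, so a smaller rise in mFoxO-TKO was not called across all genes.

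Klf9 belongs to the same factor family and is induced by glucocorticoids in many cell types. It gave 55.8, 46.2, 36.8 and 36.2 on fasted mFoxO-TKO arrays, against 43.6, 25.1, 24.3 and 23.0 on fed mFoxO-TKO arrays. On fasted WT arrays it gave 78.8, 73.9, 52.9 and 54.6, against 32.1, 29.0, 24.4 and 23.8 on fed WT arrays. Replicate 1 of fed mFoxO-TKO stood above the other 3 fed mFoxO-TKO arrays and within the fasted range, and the WT groups were apart. Fasting changed Klf9 by 0.62 ± 0.22 in mFoxO-TKO (adjusted p = 0.0979) and raised it by 1.24 ± 0.22 in WT (adjusted p = 0.000849). Fasted mFoxO-TKO differed from fasted WT by -0.57 ± 0.22 (adjusted p = 0.127). Both of the calls that Klf9 missed turned with the treatment of slide and replicate. With slide as a block they passed at the same sizes, at adjusted p = 0.0096 for mFoxO-TKO fasting and 0.0126 for the genotype difference, and with the replicate block at 0.00402 and 0.00414. Within slides the genotype difference was -0.59 on slide 1 and -0.56 on slide 2. Without fed mFoxO-TKO replicate 1 the mFoxO-TKO rise passed at an adjusted p of 0.0174. With the 75th percentile taken over all spots the genotype difference passed at an adjusted p of 0.042.

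Cebpd, a leucine zipper transcription factor of acute stress responses, had the largest rise of the set in WT muscle. Its signal was 103, 88.7, 64.1 and 70.3 on fasted mFoxO-TKO arrays, against 46.1, 11.5, 35.3 and 14.4 on fed mFoxO-TKO arrays. Fasted WT arrays stood at 282, 214, 263 and 226, against 39.1, 19.6, 27.1 and 17.7 on fed WT arrays. No fasted array overlapped a fed one in either genotype, and no fasted mFoxO-TKO array reached a fasted WT array. The rise was 3.52-fold in mFoxO-TKO (1.82 ± 0.38, adjusted p = 0.00754) and 9.95-fold in WT (3.31 ± 0.38, adjusted p = 2.28e-05). Fasted mFoxO-TKO muscle had 3.05-fold less Cebpd RNA than fasted WT muscle (-1.61 ± 0.38, adjusted p = 0.0118), whereas fed groups differed by -0.11 ± 0.38 (adjusted p = 0.9999). Slide 1 gave -1.36 and slide 2 gave -1.86 for the fasted genotype difference. The interaction was -1.50 ± 0.53 with a 95% interval of -2.63 to -0.37 for this gene alone, and an adjusted p of 0.261.

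Cebpb, its relative in the C/EBP family, works with the receptor in muscle and liver. It gave 65.9, 42.4 and 42.8 on 3 fasted mFoxO-TKO arrays, against 19.9, 35.4, 30.7 and 23.4 on the fed ones. Fasted WT muscle gave 129.6, 103 and 87.5 on 3 arrays, against 43.1, 32.1, 15.6 and 26.0 on the fed ones. Of the values used, fasted arrays lay above fed arrays in both genotypes, fasted mFoxO-TKO arrays lay below fasted WT arrays, and the fed groups overlapped. The change with fasting was 0.89 ± 0.31 in mFoxO-TKO (adjusted p = 0.108) and 1.94 ± 0.31 in WT (adjusted p = 0.000685). Fasted mFoxO-TKO differed from fasted WT by -1.10 ± 0.34 (adjusted p = 0.06). With slide as a block both of the missed calls passed, at 0.96 (adjusted p = 0.0407) for mFoxO-TKO fasting and -0.94 (adjusted p = 0.0468) for the genotype difference. With the replicate block neither passed, at adjusted p = 0.0849 and 0.0973. The uneven spot left out of fasted WT replicate 3 read 32.6 when kept, among nearby spots that were lower than on the other fasted WT arrays, with a median deviation of -0.79. Kept, it lay below the fasted mFoxO-TKO arrays and below fed WT replicate 1, so that fasted WT overlapped both groups. With uneven spots kept the change in mFoxO-TKO was 0.89 (adjusted p = 0.165), the genotype difference was -0.65 (adjusted p = 0.33), and the rise in WT was 1.49 (adjusted p = 0.0101).

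Errfi1, also known as Mig6, encodes an inhibitor of the EGF receptor family. It gave 21.3, 20.7 and 19.6 on 3 fasted mFoxO-TKO arrays, against 13.00, 9.82, 22.0 and 10.9 on the fed ones. WT muscle gave 75.5, 41.3, 29.5 and 40.5 when fasted, against 23.3, 11.2, 13.4 and 9.64 when fed. The 3 fasted mFoxO-TKO values lay close together, below the highest fed mFoxO-TKO value and below every fasted WT value. Fasting changed Errfi1 by 0.63 ± 0.35 in mFoxO-TKO (adjusted p = 0.32) and raised it by 1.70 ± 0.32 in WT (adjusted p = 0.00172). The genotypes differed in fasted muscle by -1.10 ± 0.35 (adjusted p = 0.0649), which passed with uneven spots kept (-1.05, adjusted p = 0.0366).

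Sgk1, a kinase related to Akt that is a classic glucocorticoid target in other tissues, did not follow the set. Fasted mFoxO-TKO arrays gave 96.7, 69.3, 60.1 and 55.0, against 67.7, 29.4, 62.9 and 36.7 on fed mFoxO-TKO arrays. In WT muscle the values were 69.0, 59.4, 41.3 and 36.4 when fasted, against 76.6, 41.1, 61.6 and 50.5 when fed. All groups overlapped. The change with fasting was 0.57 ± 0.30 in mFoxO-TKO (adjusted p = 0.287) and -0.17 ± 0.30 in WT (adjusted p = 0.767), where the 95% interval was -0.80 to 0.46. Fasted mFoxO-TKO differed from fasted WT by 0.46 ± 0.30 (adjusted p = 0.411). The palindrome printed for promoter 5 of Sgk1 is a match of letters in 1 of its 6 promoters, and the bases printed for Klf15 and Fkbp5, which rose with fasting, held no capitals.

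**Figure D2:**
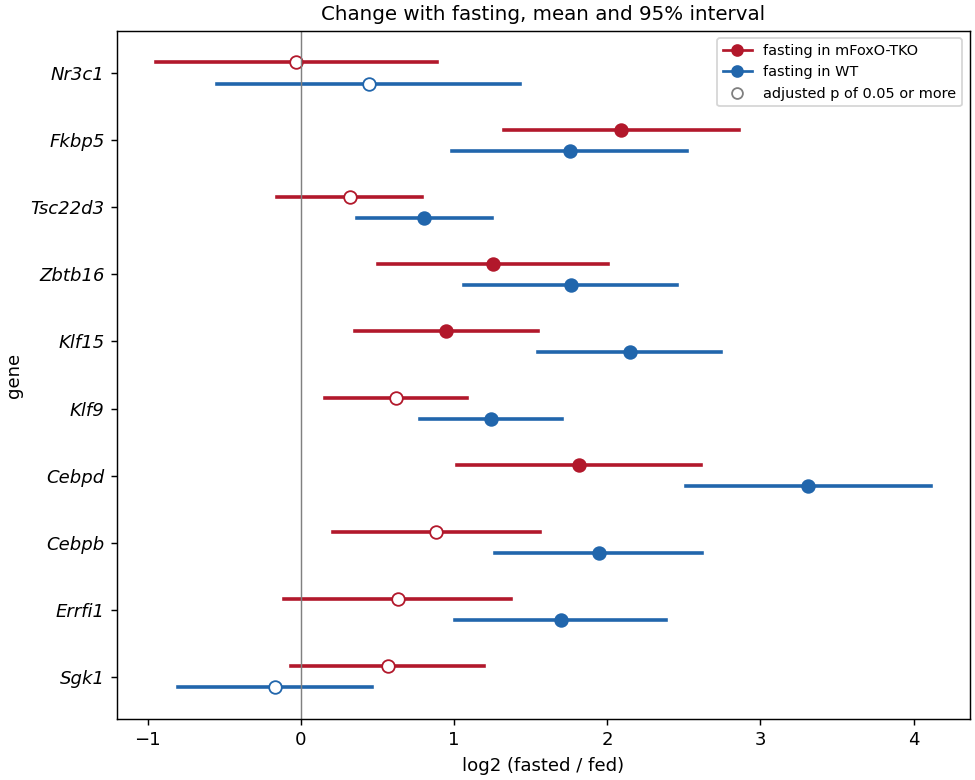
Log2 change with fasting (horizontal axis) of each gene in mFoxO-TKO muscle (upper of each pair) and WT muscle (lower), with 95% intervals from the limma model and filled points where the adjusted p was under 0.05. In WT 8 points are filled, from 0.81 for Tsc22d3 to 3.31 for Cebpd, and in mFoxO-TKO 4 points are filled.

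Read as a set, the changes with fasting had a median of 0.76 in mFoxO-TKO and 1.73 in WT, beside 0.04 and 0.02 over all genes tested. In mFoxO-TKO, 4 of the 10 genes had all fasted arrays above all fed arrays, against 7.75% of all genes, and in WT 8 had, against 15.2%. The mFoxO-TKO 4 were Fkbp5, Cebpd, Zbtb16 and Cebpb, so that Klf15 passed with overlapping groups and Cebpb did not pass with groups apart. With uneven spots kept, which also shifts the scaling of each array, 4 were apart in mFoxO-TKO, Klf15 in place of Zbtb16, and 7 in WT, without Cebpb. The count of 4 that passed in mFoxO-TKO became 2, Fkbp5 and Cebpd, without any 1 of 7 arrays: replicates 2, 3 and 4 of fasted and of fed mFoxO-TKO, and replicate 2 of fasted WT. By the size of the rise in WT, the order was Cebpd, Klf15, Cebpb, Zbtb16, Fkbp5, Errfi1, Klf9 and Tsc22d3. The 95% intervals of neighbours in this order overlapped throughout, and those of Klf15 to Errfi1 all overlapped. The interval of Cebpd, 2.52 to 4.11, lay above those of Zbtb16, Errfi1, Klf9 and Tsc22d3. Of the 8 genes that rose in WT, 7 had a smaller estimate in mFoxO-TKO and Fkbp5 a larger one. These 8 were picked for passing in WT, which by itself favours larger estimates there. The same share over all genes that rose in WT was not counted. None of the 10 interactions passed in limma, where 1.15% of all genes did, and 4 had an unadjusted p under 0.05: Klf15, Cebpb, Cebpd and Errfi1. The share of all genes under that unadjusted level was not counted, so whether 4 of 10 is unusual cannot be said. A smaller fasting response of these genes in mFoxO-TKO muscle was not shown by the test of the difference. The comparisons of fasting in mFoxO-TKO and knockout in fasted muscle share the fasted mFoxO-TKO arrays, and fasting in WT and the knockout in fasted muscle share the fasted WT arrays.

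**Figure D3:**
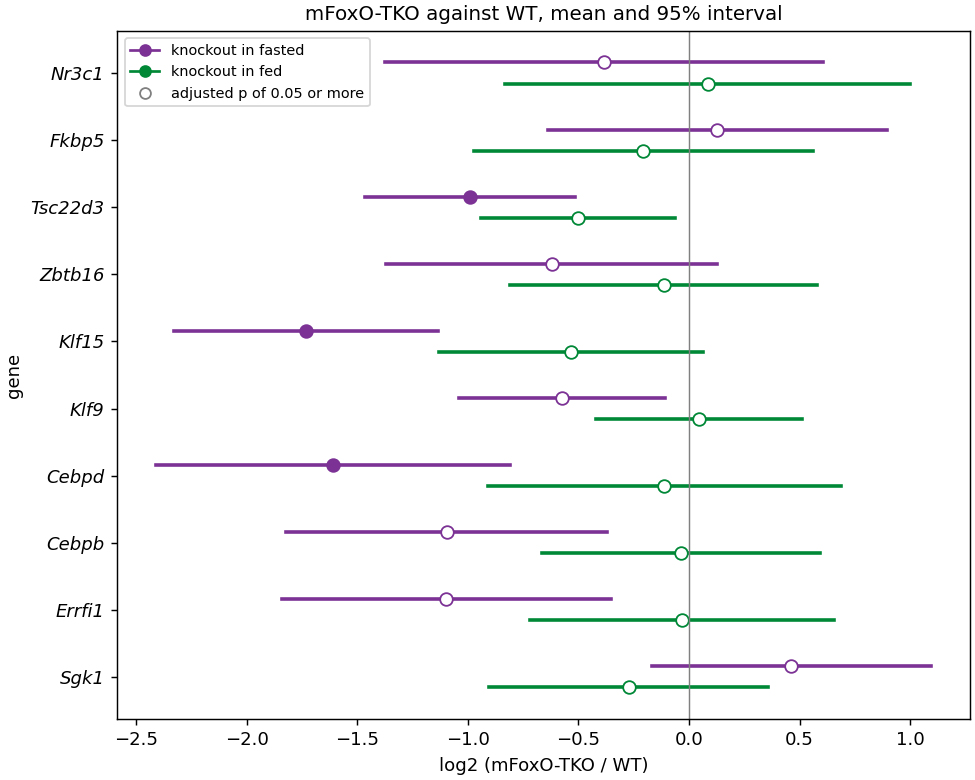
Log2 difference between mFoxO-TKO and WT (horizontal axis) of each gene in fasted muscle (upper of each pair) and fed muscle (lower), with 95% intervals from the limma model and filled points where the adjusted p was under 0.05. The 3 filled points, Klf15, Cebpd and Tsc22d3, all belong to fasted muscle and lie at -1.73, -1.61 and -0.99.

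Between fasted mFoxO-TKO and fasted WT muscle, 5 of the 10 genes had all mFoxO-TKO arrays below all WT arrays, against 6.65% of all genes: Tsc22d3, Klf15, Cebpd, Cebpb and Errfi1. With uneven spots kept 5 were, Klf9 in place of Cebpb. The median difference over the set was -0.81, beside 0.04 over all genes. The count of 3 that passed became 5 without fed WT replicate 1, when Cebpb and Errfi1 passed too. Fkbp5 and Sgk1 were the members with estimates above 0, and neither passed. In fed muscle the median difference was -0.11, beside 0.01 over all genes, Tsc22d3 and Klf15 had the lowest estimates, the other 8 lay between -0.27 and 0.09, and no member's groups were apart, where 5.47% of all genes were apart upward and 3.68% downward. With uneven spots kept 1 was, Tsc22d3, lower in fed mFoxO-TKO muscle.

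**Figure D4:**
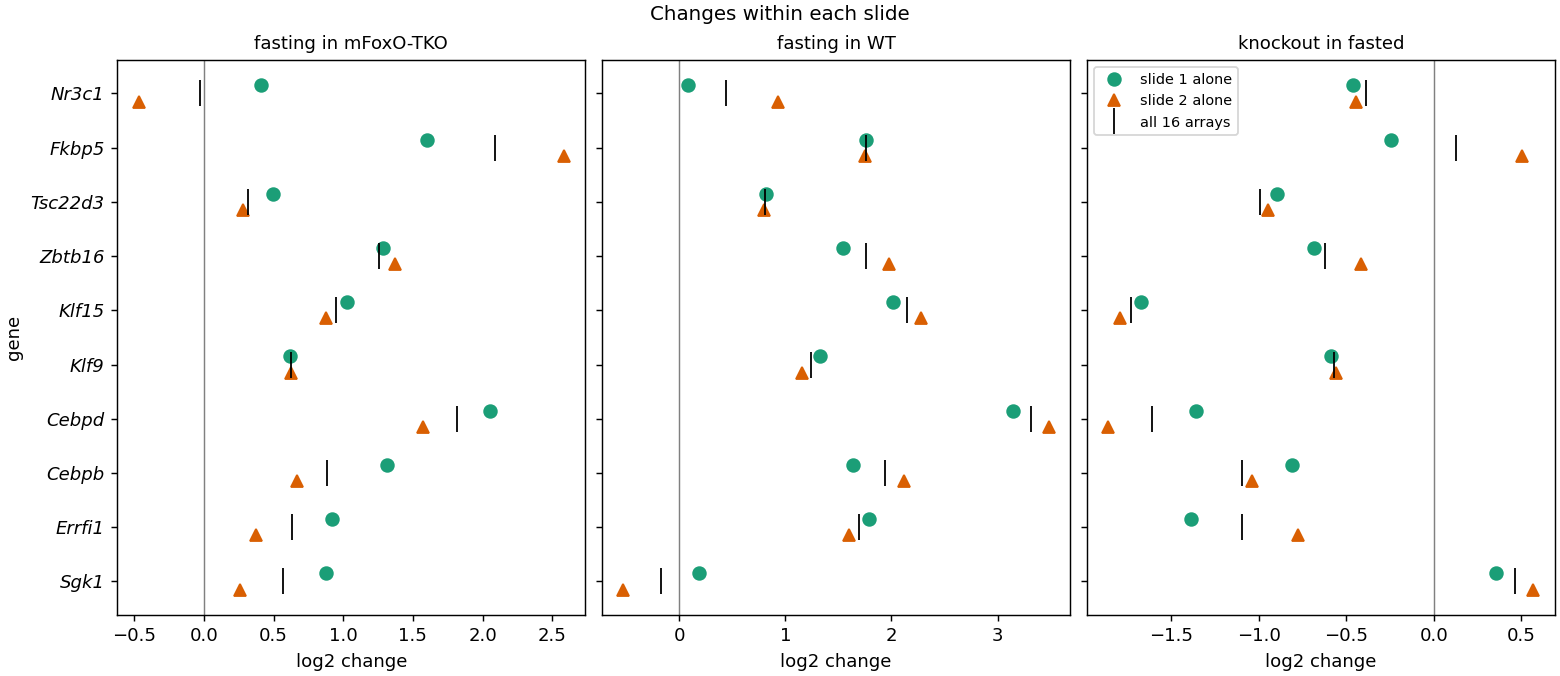
Log2 changes (horizontal axes) of each gene within slide 1 (circles) and slide 2 (triangles), each with 2 arrays per group where no spot was left out, beside the value from all 16 arrays (ticks). The 8 genes that rose with fasting in WT lie right of 0 on both slides, between 0.80 and 3.48.

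Every gene that passed with all arrays had the same direction within each slide. In mFoxO-TKO the 4 rises were 1.03 to 2.06 on slide 1 and 0.88 to 2.58 on slide 2. In WT the 8 rises ran from 0.82 to 3.15 on slide 1 and from 0.80 to 3.48 on slide 2. The 3 genotype differences in fasted muscle were -1.67 to -0.90 on slide 1 and -1.86 to -0.95 on slide 2. Fewer genes passed within 1 slide of 8 arrays. Of the 4 genes in mFoxO-TKO fasting 0 passed on slide 1 and 2 on slide 2, of the 8 in WT fasting 1 and 7, and of the 3 between fasted genotypes 0 and 1. Few of all genes passed on slide 1 in these comparisons, 70, 699 and 328 of 22098 tested. On slide 2 the counts were 1047, 3856 and 1257 of 24840. Klf9, which had not passed with all arrays, passed on slide 2 in mFoxO-TKO fasting (adjusted p = 0.0328) and between fasted genotypes (adjusted p = 0.0345). With slide as a block, 6 members passed in mFoxO-TKO fasting, 8 in WT fasting and 5 in the fasted genotype comparison. Of all 21280 genes, 2797, 5923 and 3023 passed with that block, against 1811, 4428 and 2003 without it.

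**Figure D5:**
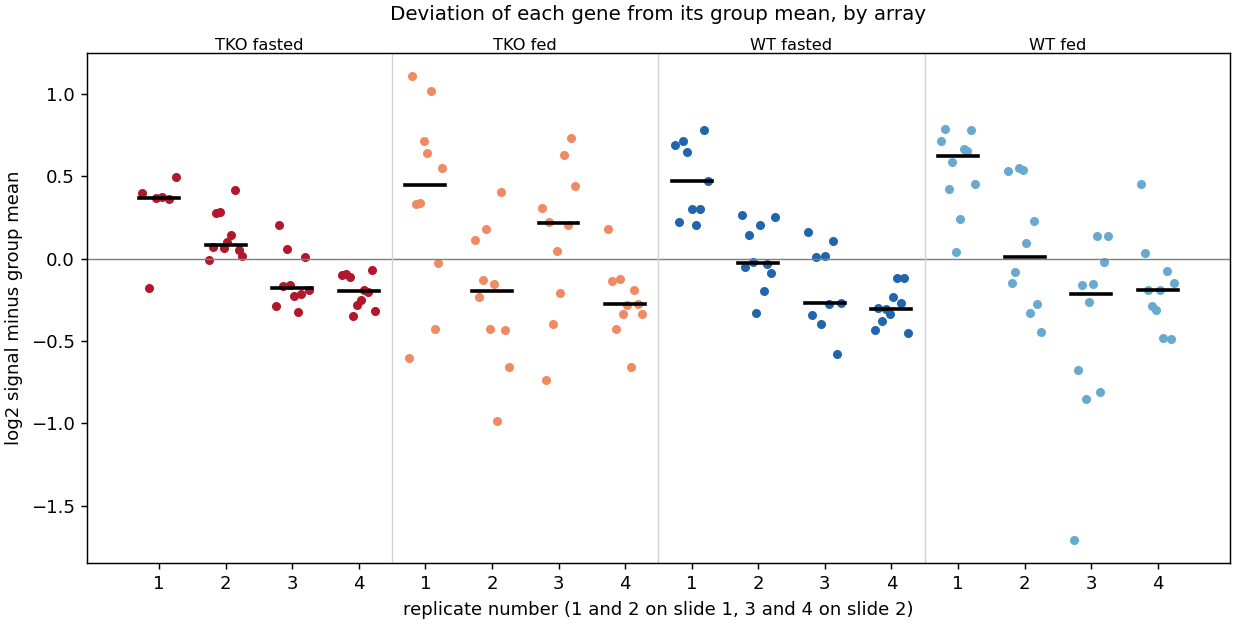
Log2 signal of each gene minus its group mean (vertical axis) on each array, ordered by group and replicate number (horizontal axis), with bars at the median over the genes. Replicate 1 has the highest median in every group, between 0.37 and 0.62.

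Deviations from the group mean were shared among the genes. Replicate 1 held the highest value of its group for 5 of 6 genes in fasted mFoxO-TKO, 7 of 10 in fed mFoxO-TKO, 9 of 9 in fasted WT and 9 of 10 in fed WT. Over 4544 genes at least as bright as the dimmest of the 10, replicate 1 was the highest for 84.2% in fasted mFoxO-TKO, 76.6% in fed mFoxO-TKO, 55.7% in fasted WT and 63.8% in fed WT. With the scaling used here, the high values of replicate 1 were shared by many bright genes of these arrays, and every group held 1 such array. In fasted mFoxO-TKO they depended in part on leaving out uneven spots, which also shifts the scaling. With uneven spots kept, replicate 1 of that group read 44.0 for Klf9, 81.5 for Cebpd and 6.85 for Klf15. Replicate 2 then read higher, at 46.0, 88.3 and 7.01, while replicate 1 stayed the highest for Nr3c1 and Sgk1.

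Other genes of the pathway were counted from lists drawn up around these 10, also with earlier results of these data known. The shares of all genes beside these counts give a scale and test no enrichment. Of 19 known glucocorticoid targets of muscle, 18 were tested. With fasting 15 rose in mFoxO-TKO, where 4.29% of all genes did, with a median change of 1.76 beside 0.04 over all genes. In WT 14 rose, where 11.2% of all genes did, and 1 fell, Bcl6 (-1.23 ± 0.28, adjusted p = 0.00656), with a median of 2.11 beside 0.02. The 4 largest changes in WT belonged to Ddit4 (an mTORC1 inhibitor), Mt2 (a metallothionein), Fbxo32 (a ubiquitin ligase of muscle wasting) and Cdkn1a (a cell cycle inhibitor). Ddit4 rose by 3.08 ± 0.43 in mFoxO-TKO (adjusted p = 0.00065) and 3.86 ± 0.43 in WT (adjusted p = 2.08e-05). For Cdkn1a the rises were 2.84 ± 0.26 in mFoxO-TKO (adjusted p = 3.31e-05) and 3.38 ± 0.26 in WT (adjusted p = 8.00e-07). Fbxo32 rose by 2.19 ± 0.32 in mFoxO-TKO (adjusted p = 0.00085) and 3.67 ± 0.32 in WT (adjusted p = 2.21e-06). It was lower in fasted mFoxO-TKO than in fasted WT muscle (-2.17 ± 0.32, adjusted p = 0.000392). Mt2 rose by 1.93 ± 0.47 in mFoxO-TKO (adjusted p = 0.0193) and 3.71 ± 0.47 in WT (adjusted p = 6.07e-05). It was the only gene of the list higher in fed mFoxO-TKO than in fed WT muscle, by 2.55 ± 0.47 (adjusted p = 0.0152). Between fasted genotypes 2 of the 18 were higher in mFoxO-TKO, Lcn2 and Pik3r1, and 3 lower, Fbxo32, Arrdc2 and Trim63, with a median of -0.10 beside 0.04 over all genes. Lcn2, an acute phase protein, was at 3.74 ± 0.44 (adjusted p = 4.90e-05) and Pik3r1, a regulatory subunit of PI3 kinase, at 1.56 ± 0.27 (adjusted p = 0.00171). The ubiquitin ligase Trim63 was at -1.11 ± 0.33 (adjusted p = 0.0489) and the arrestin relative Arrdc2 at -1.32 ± 0.36 (adjusted p = 0.0308).

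Of 17 chaperones and coregulators of the receptor, 1 rose with fasting in mFoxO-TKO and 2 in WT, shares near the 4.29% and 11.2% of all genes that rose, with median changes of 0.07 in mFoxO-TKO and 0.08 in WT. Nrip1, a corepressor of nuclear receptors, rose by 0.68 ± 0.18 in mFoxO-TKO (adjusted p = 0.0278) and 0.80 ± 0.18 in WT (adjusted p = 0.00491). Ptges3, the p23 co-chaperone of the receptor complex, changed by 0.13 ± 0.19 in mFoxO-TKO (adjusted p = 0.757) and rose by 0.73 ± 0.19 in WT (adjusted p = 0.0133). H6pd supplies the cofactor with which Hsd11b1 regenerates active hormone. It changed by 0.30 ± 0.25 in mFoxO-TKO (adjusted p = 0.537) and rose by 1.08 ± 0.25 in WT (adjusted p = 0.00596), and was lower in fasted mFoxO-TKO than in fasted WT muscle (-1.23 ± 0.25, adjusted p = 0.00493). It was the only 1 to pass with fasting among 3 tested genes of hormone conversion and the mineralocorticoid receptor.

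Relatives and partners of the members were counted list by list. Of 12 other Krüppel-like factors tested, 1 rose with fasting in mFoxO-TKO, Klf10 (0.75 ± 0.21, adjusted p = 0.0399), and 2 in WT, Klf6 (1.31 ± 0.22, adjusted p = 0.000593) and Klf10 (1.28 ± 0.21, adjusted p = 0.000524), beside the 4.29% and 11.2% of all genes that rose in those comparisons. Like Klf15, 2 of these 12 were lower in fasted mFoxO-TKO than in fasted WT muscle, where 5.0% of all genes were. Klf6 was 1 of them (-0.75 ± 0.22, adjusted p = 0.0445). Of 3 other C/EBP family genes 0 passed in any comparison in limma, though 2 had an unadjusted p under 0.05 for fasting in mFoxO-TKO and 1 for fasting in WT. The shares of all genes under that unadjusted level were not counted. Tsc22d4, a relative of Tsc22d3, fell in both genotypes, at -0.62 ± 0.18 in mFoxO-TKO (adjusted p = 0.0419) and -0.96 ± 0.18 in WT (adjusted p = 0.00125), the reverse of Tsc22d3 in WT, and it was the only 1 to pass with fasting among 3 relatives of Tsc22d3 and Sgk1. Of 3 amino acid genes linked to Klf15, 2 rose in each genotype, Prodh and Gpt in mFoxO-TKO and Prodh and Bcat2 in WT. Between fasted genotypes 1 of the 3, Gpt, was higher in mFoxO-TKO, where Klf15 was lower, and 939 of all 21280 genes were higher there. Gpt had no value on replicate 1 of fasted mFoxO-TKO, fed mFoxO-TKO and fasted WT. Prodh, which begins proline breakdown and is linked to Klf15, rose by 1.98 ± 0.32 in mFoxO-TKO (adjusted p = 0.00171) and 1.41 ± 0.32 in WT (adjusted p = 0.00546). Bcat2, the mitochondrial aminotransferase of branched-chain amino acids, changed by 0.33 ± 0.25 in mFoxO-TKO (adjusted p = 0.485) and rose by 0.86 ± 0.25 in WT (adjusted p = 0.0209). Of 3 substrates of Sgk1, 1 rose in WT. Nedd4l, the ubiquitin ligase that Sgk1 phosphorylates, changed by 0.52 ± 0.26 in mFoxO-TKO (adjusted p = 0.268) and rose by 1.37 ± 0.26 in WT (adjusted p = 0.0016). Egfr, a target of Errfi1 and 1 of 2 such receptors tested, changed by 0.21 ± 0.18 in mFoxO-TKO (adjusted p = 0.547) and rose by 0.85 ± 0.18 in WT (adjusted p = 0.00313).

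The genes whose profiles over the arrays lay nearest to each member were found among 12114 named genes, by the root mean square difference of log2 signals after centring each gene on its mean over the 14 to 16 arrays with a value. Genes picked in this way change much as the member does by the choice itself, so their tests below add no separate support. Fkbp5 lay nearest to Prodh (0.263) and Plin4 (0.350), and Zbtb16 lay near Plin4 (0.284). Plin4, a lipid droplet protein, rose with fasting in mFoxO-TKO (1.68 ± 0.23, adjusted p = 0.000515) and WT (1.81 ± 0.23, adjusted p = 5.31e-05). Klf15 lay nearest to Ppp1r15a (0.316) and Ulk1 (0.317). Ulk1, the kinase that starts autophagy, changed by 0.42 ± 0.16 in mFoxO-TKO (adjusted p = 0.137) and rose by 1.99 ± 0.16 in WT (adjusted p = 1.43e-06), and its interaction of -1.57 ± 0.23 passed (adjusted p = 0.00353). Cebpd lay nearest to Kcnv2 (0.353) and Pim3 (0.453). Both rose in both genotypes, Kcnv2, a potassium channel subunit, by 1.57 ± 0.29 in mFoxO-TKO (adjusted p = 0.00379) and 3.20 ± 0.29 in WT (adjusted p = 3.17e-06). The kinase Pim3 rose by 1.62 ± 0.19 in mFoxO-TKO (adjusted p = 0.000216) and 2.75 ± 0.19 in WT (adjusted p = 3.48e-07). The remaining pairs were Klf9 with Crbn and Sun2, Cebpb with Anapc16 and Por, Tsc22d3 with Rnf114 and Cog6, and Errfi1 with Clk4 and Klf6, at differences of 0.133 to 0.336.

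The split of all calls into higher and lower depended on the scaling, while all 8 members that rose in WT also passed under each of these scalings of the scanner values. Of the genes called with fasting in WT, 54.0% were higher, against 42.7% after quantile normalization, 37.1% with the percentile over probes well above background on all arrays, 40.9% with the percentile over kept probes and 40.5% in the authors' table. For the fasted genotype comparison 46.9% were higher, against 62.5% and 61.9% with those percentiles, and for mFoxO-TKO fasting 50.4%, against 63.6% after normexp background correction. For the interaction 36.9% were higher, against 51.4% and 50.1% with those percentiles and 48.4% in the authors' table. The percentile over probes well above background on all arrays moved the median of all genes in WT fasting by -0.13, and the percentile over kept probes by -0.10, both less than the smallest rise of the 8 members that passed there, 0.81.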

How the data were processed

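RNA of 16 quadriceps muscles was hybridised to 1-colour Agilent arrays, 1 mouse per array, on 2 slides. The deposited scanner files give, per the file headers, processed signal intensity from Agilent Feature Extraction 11.0.1.1 (9.5 per the submitters' processing notes), which is background-subtracted and not scaled between arrays, for an array design on mouse build mm9, and marks of 0 or 1 for spots well above background, saturated or uneven. Between 45.0% and 75.2% of probes were well above background per array, and the number of arrays limits the precision. The authors' deposited table holds scores, 18324 spots scaled so that the 75th percentile of each array is 100, and was used only as an alternative, as log2(value + 1). 

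From the intensities, log2 values were taken without uneven spots (0 to 2.86% per array), repeats of a probe were averaged and the 75th percentile over the probes of the array was subtracted. Probes well above background on all arrays of at least 1 group were kept, 28570 of 55681, and the brightest probe stood for a gene. Of the probes, 28331 had a symbol and 27350 had none, and those without were grouped by accession. A limma 3.58.1 model (R 4.3.3) of 4 group means with 12 residual degrees of freedom gave 5 contrasts, with Benjamini-Hochberg adjustment over 21280 genes. Missing uneven values left n = 3 for Tsc22d3, Cebpb, Zbtb16 and Errfi1 in fasted mFoxO-TKO, and for Cebpb and Nr3c1 in fasted WT. The fit was tested on simulated data. Python 3.11.15 with numpy 2.4.6, pandas 2.3.3 and matplotlib 3.10.9 made the tables and figures.

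The members and lists were chosen with earlier results of these data known. The spots over which the percentile was taken and the grouping of unnamed probes were settled after calls had been seen. Named are all members, the FoxO genes, up to 4 genes of a list that passed in WT fasting with the largest change there, and the 2 genes nearest in profile to each member that passed. 1 such result is not reported here. Genes named beside a count of 5 or fewer were chosen after their values were seen. Alternatives tried were the background correction (normexp, offset 50), the scaling, the filter on dim probes, uneven spots, single probes, slide and replicate number as blocks, each slide alone, only the groups compared, the authors' table and leaving out each array. The labels number the replicates alike in every group. Deviations from group means correlated between same-numbered arrays at 0.06 to 0.39, over 0.1 in 23 of 24 pairs, and between arrays of 1 slide with other numbers at a median of 0.11, so that number and slide cannot be fully told apart.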

Additional observations from a re-analysis of the deposited data

Results flagged for a closer look

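Of 38 groups of 4 arrays checked for a single array far from the others, 2 were found, and chance gives about 1 in 20 groups. Nr3c1 in fed WT replicate 3 read 10.3 by its brighter probe, against 46.1 to 55.4 on the other fed WT arrays, a gap of 0.891 of the group's range. Klf9 in fed mFoxO-TKO replicate 1 read 43.6, against 23.0 to 25.1 on the other arrays of that group, a gap of 0.864 of the range.

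Among the genes named, 3 changed differently with fasting in mFoxO-TKO than in WT muscle by the interaction in limma. Foxo1, one of the deleted genes, had a difference of -1.64 (adjusted p = 0.0239), its change being lower in mFoxO-TKO. Ulk1, which lay near Klf15 in profile, had -1.57 (adjusted p = 0.00353). Lcn2, a secreted protein on the list of glucocorticoid targets, had 2.85 (adjusted p = 0.035) and was the only gene of that list whose response differed by this test.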

How the results depend on the processing

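Of 1775 values of members under alternatives, 1661 kept their direction and their side of the threshold, 44 lost a call, 27 gained one and 43 turned sign, all of the last in comparisons that had not passed, 28 of them between fed genotypes. The numbers of members passing moved by over 1.5 times as follows. Slide 1 alone passed 0 in mFoxO-TKO fasting, 1 in WT fasting and 0 between fasted genotypes, where 70, 699 and 328 of 22098 genes passed. All probes kept gave 2 in mFoxO-TKO fasting, where 993 of 36717 genes passed. Between fasted genotypes 5 passed with slide as a block and 5 with only probes well above background on all arrays. Those settings passed 3023 of 21280 and 1797 of 16703 genes. The authors' table, which held 6 members, passed 4 in WT fasting, where 4943 of 13351 genes passed. Leaving out 1 array gave 2 to 5 in mFoxO-TKO fasting, 8 to 8 in WT fasting, 3 to 5 between fasted genotypes, 0 to 0 between fed genotypes and 0 to 0 for the interaction. With the replicate block 5 passed in mFoxO-TKO fasting, 8 in WT fasting, 4 between fasted genotypes, 0 between fed genotypes and 0 for the interaction, Klf9 being the gene gained. Of all 21280 genes, 3181, 6353, 3372, 415 and 699 passed with that block, against 1811, 4428, 2003, 217 and 244 without it. Of 8 combinations of percentile and grouping of unnamed probes, run after calls had been seen, all passed 8 in WT fasting, while mFoxO-TKO fasting ranged from 3 to 5 and the fasted genotypes from 3 to 4. The causes were not tested.

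Signs turned at these values. In WT fasting Sgk1 was 0.19 on slide 1, and Nr3c1 was -0.20 in the authors' table, -0.0907 by its dimmer probe and between -0.13 and 0.68 without 1 array. In mFoxO-TKO fasting Nr3c1 was 0.41 on slide 1 and between -0.23 and 0.0741 without 1 array. Between fasted genotypes Fkbp5 was -0.16 after normexp and -0.25 on slide 1. For the interaction Nr3c1 was 0.33 and Fkbp5 -0.16 on slide 1, and without 1 array Nr3c1 ran from -0.71 to 0.0977. Between fed genotypes Errfi1 was 0.0233 after normexp, and Nr3c1 was -0.79 on slide 1 and -0.0281 in the authors' table. On slide 2 they were -0.0259 for Klf9, 0.41 for Cebpb, 0.0445 for Cebpd, 0.19 for Zbtb16 and 0.45 for Errfi1. Without 1 array Nr3c1 ran from -0.48 to 0.32, Fkbp5 from -0.58 to 0.0552, Klf9 from -0.17 to 0.14, Cebpb from -0.31 to 0.18, Cebpd from -0.45 to 0.22, Zbtb16 from -0.40 to 0.0810 and Errfi1 from -0.28 to 0.23. Single values are limited by 6 uneven spots on 3 arrays and by low local signal around other spots, and 2 slides with 2 arrays of each group on each limit the precision within slides.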
